A study of Mus musculus with 2 samples.

Results

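Complement transcripts were followed in tdTomato-sorted cells of the mouse spinal cord, in ependymal cells and in microglia-like cells captured with them. The 5 genes described are C1qa, C1qb, C1qc, C4b and C3. They were chosen by name with their measured values in these libraries already known, so their levels are a description and no test is attached to them. They are 5 of the 17189 genes listed in either library, and they are set among 38 listed genes of a wider list of 47 complement genes. All animals were adult C57BL/6J mice of at least 12 weeks carrying Troy-CreERT2+/- and Rosa26-tdTomato, so both groups bear the same alleles. In this model Cre is driven by Troy (Tnfrsf19) and marks cells with the red protein tdTomato. One library came from uninjured cord and 1 from cord taken 3 days after a dorsal funiculus incision, a cut through the dorsal white matter tracts. From each, 5 mm of cord around the lesion, or the matching stretch, was dissociated and sorted for tdTomato. The number of animals behind each library is not given in the sources used here. With 1 library per group there is no replicate check, and injury and library cannot be told apart.

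Complement is a cascade of plasma proteins that tags cells and debris for removal. C1q, built from the chains encoded by C1qa, C1qb and C1qc, binds targets and starts the classical pathway. The attached proteases then cleave C4 and C2, and the resulting enzyme cleaves C3, whose fragments coat the target and signal to receptors on phagocytes. In the central nervous system microglia are the main source of C1q, and C3 is widely used as a marker of one reactive state of astrocytes.

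The 3 C1q genes lie side by side on the minus strand of chromosome 4 (GRCm38, 136880129 to 136898803, a span of 18675 bases), and each has 3 exons. C3 (17, 57203970 to 57228136) and C4b (17, 34728380 to 34743882) are both minus-strand genes of 41 exons. All 5 are annotated as protein coding. Promoter sequences (RefSeq, GRCm38.p6) were at hand for C1qb, C1qc and C3 and are shown because the C1q genes and C3 were held by different cells. Each runs 5′ to 3′ on the gene's strand from 250 bases before the start site to 50 after it, at chr4:136886151-136886450, chr4:136892865-136893164 and chr17:57228087-57228386, all minus strand. Capitals mark matches on either strand to any of 5 motifs: GAGGAA (the core bound by PU.1 and other ETS factors), GGGANNNNCC (NF-kB type), TTCNNNGAA (STAT type), TTGCNNAA (C/EBP type) and GAAANNGAAA (IRF type).
C1qb: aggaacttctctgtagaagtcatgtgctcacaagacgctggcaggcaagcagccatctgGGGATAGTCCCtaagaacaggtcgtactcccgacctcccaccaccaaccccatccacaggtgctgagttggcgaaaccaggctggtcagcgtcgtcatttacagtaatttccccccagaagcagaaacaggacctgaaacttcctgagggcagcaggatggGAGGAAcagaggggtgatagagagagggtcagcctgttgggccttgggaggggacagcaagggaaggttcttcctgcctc
C1qc: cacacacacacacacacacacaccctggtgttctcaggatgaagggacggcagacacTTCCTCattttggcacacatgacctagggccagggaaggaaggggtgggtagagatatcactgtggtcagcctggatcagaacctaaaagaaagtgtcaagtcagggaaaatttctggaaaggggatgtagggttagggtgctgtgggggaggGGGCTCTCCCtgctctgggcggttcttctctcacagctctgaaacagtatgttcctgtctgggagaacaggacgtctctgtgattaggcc
C3: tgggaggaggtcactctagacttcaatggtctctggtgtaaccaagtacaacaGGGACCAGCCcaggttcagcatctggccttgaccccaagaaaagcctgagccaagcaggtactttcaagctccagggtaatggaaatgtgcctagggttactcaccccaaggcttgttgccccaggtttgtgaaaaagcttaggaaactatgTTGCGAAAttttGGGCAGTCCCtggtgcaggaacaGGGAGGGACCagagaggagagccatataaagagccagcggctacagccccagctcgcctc
The C1qb and C1qc windows each held GAGGAA once, at -30 and -193 from the start site base, and the C3 window held none. GAGGAA occurs in 28.3% of all 32851 promoters of this length. The NF-kB type motif matched in all 3 windows: in C1qb at -191 and -190, which overlap, in C1qc at -40, and in C3 at -197, -33 and -10. It occurs in 20.7% of all promoters, and 3 or more matches occur in 0.533%. C3 held 1 C/EBP type match, at -45, a motif found in 10.8% of promoters. The STAT and IRF types, found in 8.30% and 3.44% of promoters, had no match in the 3 windows. These matches are descriptions of letters, not of binding.

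Counts were unique molecular identifiers (UMIs, 1 per captured transcript) and are given as CPM, counts scaled to a common total of 1e+06 UMIs over the cells summed. The authors' table of ependymal cells, labelled EpA, held 555 uninjured and 1004 injured cells with 7689179 and 25296289 UMIs, a median of 11387 and 20158.5 per cell. Another 156 and 224 kept cells lay outside it, with medians of 6879.5 and 15622 UMIs. All 10 ependymal markers were present in EpA cells of both libraries, their summed level 10254 CPM in the uninjured and 2942 CPM in the injured library. Clusters were made without any complement gene. One cluster outside EpA, of 35 uninjured and 30 injured cells, was led by Ctss, Tyrobp and Fcer1g and is called microglia-like. The injured cells of this cluster also held macrophage markers, given below. Which of them were microglia and which macrophages was not tested. These sorted microglia-like cells held tdTomato at 37.8 and 122 CPM, against 645 and 1716 CPM in EpA cells. The libraries shared 18 cell barcodes, 2 of them in EpA. All intervals below are exact 95% intervals for counting error only, and since cells vary more than counting does, they are too narrow for the spread between cells.

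C1q transcripts belonged to the microglia-like cells in both libraries. In these cells C1qa, which encodes the A chain, stood at 7743 CPM in the uninjured and 5751 CPM in the injured library. C1qb, the B chain, stood at 7885 and 5574 CPM, and C1qc, the C chain, at 4988 and 3584 CPM. All 3 chains were lower as CPM in the injured library, by factors of 1.35, 1.41 and 1.39. Of all C1q UMIs outside EpA, 4910 of 4934 in the uninjured and 11007 of 11026 in the injured library lay in this 1 cluster. At least 1 C1q UMI was seen in 33 of 35 and 29 of 30 of its cells.

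The 3 chains kept nearly the same mix after injury. C1qa made up 37.6% of the C1q UMIs of uninjured microglia-like cells (36.2 to 38.9%) and 38.6% of those of injured ones (37.7 to 39.5%). C1qb made up 38.2% and 37.4%, and C1qc 24.2% and 24.0%. The intervals of the 2 libraries overlapped for each chain. These shares compare a chain with itself between libraries, since the counts are not divided by transcript length.

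Whether the C1q sum was lower or higher after injury depended on the scale. As CPM it was 20616 in the uninjured and 14910 in the injured microglia-like cells, 1.38-fold lower (1.34 to 1.43), a log2 difference of -0.47. Counted per cell without scaling, the mean was 140.3 C1q UMIs for uninjured cells and 367 for injured cells, a log2 difference of 1.39 in the other direction. The injured microglia-like cells were deeper, with a median of 21186.5 UMIs against 7534. Single cells overlapped: the middle 50% of cells lay between 17974 and 26284 CPM in the uninjured and between 10574 and 19418 CPM in the injured library. At a finer clustering the microglia-like cells split into a cluster led by Lyz2 and Fcer1g, with 11 uninjured and 29 injured cells, and one led by P2ry12 and Cx3cr1, with 24 and 1. Within the first, the C1q sum stood at 15547 CPM in the uninjured and 14926 CPM in the injured library, a ratio of 0.960 (0.889 to 1.04). The uninjured cells of the second stood at 21796 CPM.

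The C1q chains changed less in CPM than most markers of resting microglia in the same cells. Of 11 microglia markers, 7 were lower by 2-fold or more after injury and 0 were higher by that much. Their median log2 difference was -2.16. Over the 3539 genes with 50 CPM or more in either library of these cells, 25.5% were lower and 17.7% higher by 2-fold. The median log2 difference of those genes was -0.19. P2ry12, a purinergic receptor of resting microglia, went from 2070 to 131 CPM. Tmem119, another marker of resident microglia, went from 878 to 167 CPM, and the fractalkine receptor Cx3cr1 from 2817 to 561 CPM. Tyrobp and Fcer1g, signalling adaptors of myeloid receptors, stood at 3179 and 2901 CPM and at 2276 and 2937 CPM. Most macrophage markers were higher after injury. Lyz2, which encodes lysozyme, went from 1646 to 5746 CPM, Pf4 from 0 to 527 CPM and Ms4a7 from 0 to 119 CPM. F13a1, Ccr2, Chil3 and Mrc1 were higher too, at 58.2, 35.2, 28.4 and 20.3 CPM in the injured library. Ly6c2 had 0 and 2 UMIs, and only Plac8 was lower, going from 75.6 to 0 CPM. Within the finer cluster led by Lyz2, of 11 and 29 cells, Lyz2 itself went from 7451 to 5820 CPM, so its pooled difference goes with the different mix of the 2 finer clusters in each library. There Cx3cr1, Tmem119 and P2ry12 were 2.01-, 1.99- and 9.89-fold lower after injury, against 5.02-, 5.27- and 15.8-fold in the pooled cells. The pooled differences of these 3 markers thus also include that mix. These markers took part in the clustering, and their part in the C1q levels was not tested.

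**Figure D1:**
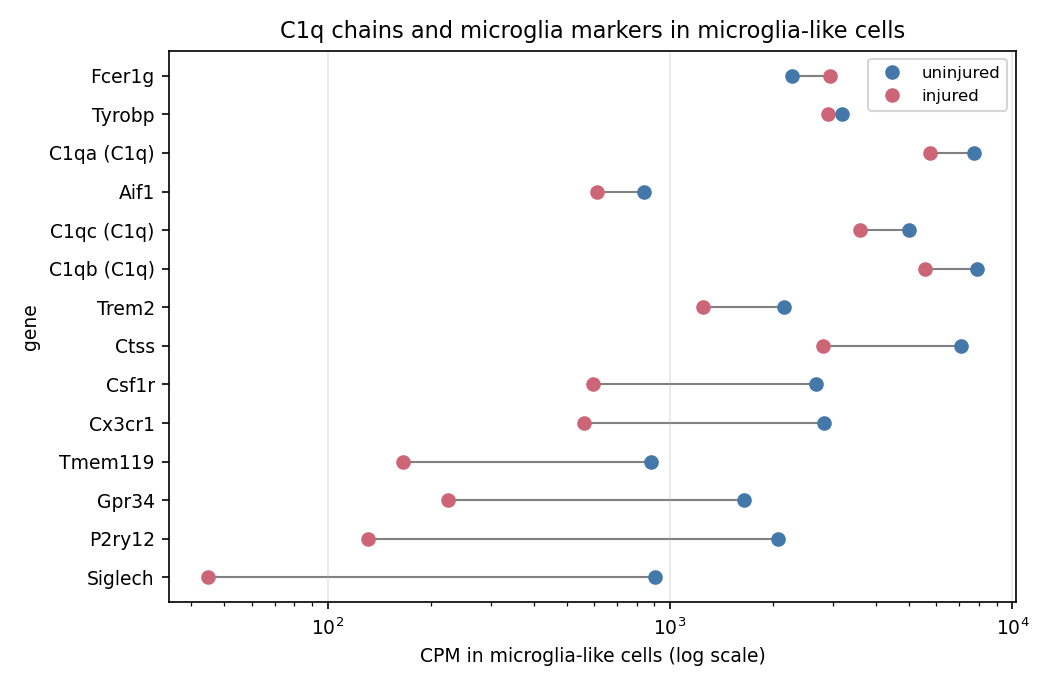
Levels in microglia-like cells (CPM, log scale) of the C1q chains and 11 microglia markers, 35 uninjured cells in blue and 30 injured cells in red, 1 library each. The 3 C1q chains shift by under 2-fold while P2ry12 goes from 2070 to 131 CPM and Siglech from 903 to 44.7 CPM.

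In EpA cells C1q was at the level of the microglia markers, each taken relative to the microglia-like cells. The uninjured library held 8, 7 and 1 UMIs of C1qa, C1qb and C1qc over 555 cells, and the injured library held 22, 29 and 15 over 1004 cells. Their sum was 2.08 CPM (1.19 to 3.38) and 2.61 CPM (2.02 to 3.32), and these intervals overlap. In the uninjured library 16 cells (2.88%) held a C1q UMI, each exactly 1. In the injured library 38 cells (3.78%) did, and 1 cell held 22 of the 66 UMIs together with 38 UMIs of microglia markers. C1qa in uninjured EpA cells amounted to 0.0134% of its level in the microglia-like cells. The 11 microglia markers reported here had a median of 0.0126% there (0 to 0.0296%) and 0.0399% in the injured library (0.0141 to 0.120%).

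C4b and C3, nearly unseen in uninjured EpA cells, were present in injured ones. C4b, whose protein is cleaved after C1q binds, had 12 UMIs in 11 of 555 uninjured cells and 1452 UMIs in 491 of 1004 injured cells. Its level was 1.56 CPM (0.806 to 2.73) in the uninjured and 57.4 CPM (54.5 to 60.4) in the injured library, 36.8-fold higher (21.0 to 71.3). C3, the central component of all complement pathways, had 8 UMIs in 7 uninjured cells and 579 UMIs in 183 injured cells. Its level was 1.04 CPM (0.449 to 2.05) and 22.9 CPM (21.1 to 24.8), 22.0-fold higher (11.1 to 51.2). For both genes the count intervals of the libraries lay far apart. Counts over many genes below use a size rule: a level of 50 CPM or more in 1 of the libraries with a 2-fold difference. C4b passed it, and C3 did not reach 50 CPM. By that rule 10.9% of the 3706 genes at this level were higher in injured EpA cells and 13.8% were lower.

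Injured microglia-like cells did not hold C3 and C4b at such levels. The microglia-like cells held 2 UMIs of C3 in the uninjured library, both in 1 cell, and 0 of 738247 UMIs in the injured library, which allows up to 4.06 CPM at a floor of 3 counts (exact upper limit 5.00 CPM). They held 0 UMIs of C4b in the uninjured library and 9 in the injured one, 12.2 CPM (5.57 to 23.1). In the injured library the C4b level of EpA cells was thus 471% of that in microglia-like cells, where the 11 microglia markers stood at up to 0.120%. EpA cells with 2 or more UMIs of the listed microglia or macrophage markers numbered 94 and 276. Without them the log2 differences were 4.42 for C3 and 5.00 for C4b, against 4.37 and 5.14 with all cells. C4b has a near copy, C4a, and 38.1% of the 50-base windows in the last 500 bases of the C4b transcript also occur in C4a, so C4b counts are uncertain where reads could be shared. C4a is not analysed here.

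Outside EpA, the other cell classes differed in C4b. Fibroblast-like cells held 166 CPM (111 to 238) in the uninjured and 43.5 CPM (32.3 to 57.4) in the injured library, from 30 and 35 cells. Endothelial-like cells held 17.4 and 7.19 CPM. Astrocyte-like cells went the other way, with 1 UMI in 30 uninjured cells (4.27 CPM, 0.108 to 23.8) and 17 UMIs in 5 of 7 injured cells (271 CPM, 158 to 435). The last value rests on 7 cells. All cells outside EpA together gave 30.4 and 18.4 CPM, a mix whose cell types differ in number between the libraries. This log2 difference of -0.74 turned to 0.15 with every cell weighted alike.

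C3 outside EpA came from few cells. Of 26 C3 UMIs in the uninjured library, 23 lay in 4 cells of 1 unnamed cluster. One of these cells held 12 of the C3 UMIs and 18180 of the 18856 neutrophil marker UMIs of the 4, and the lowest of them held 1 neutrophil marker UMI. Of 28 C3 UMIs in the injured library, 19 lay in 12 cells that clustered with EpA cells, and 1 of these cells held 11. The levels were 20.3 CPM (13.3 to 29.7) and 4.02 CPM (2.67 to 5.81). Endothelial-like cells held 0 and 4 C3 UMIs and astrocyte-like cells 0 and 1. In EpA cells neutrophil markers summed to 8.71 CPM in the uninjured and 0.119 CPM in the injured library. Any part of neutrophil RNA in the C3 counts was not tested.

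**Figure D2:**
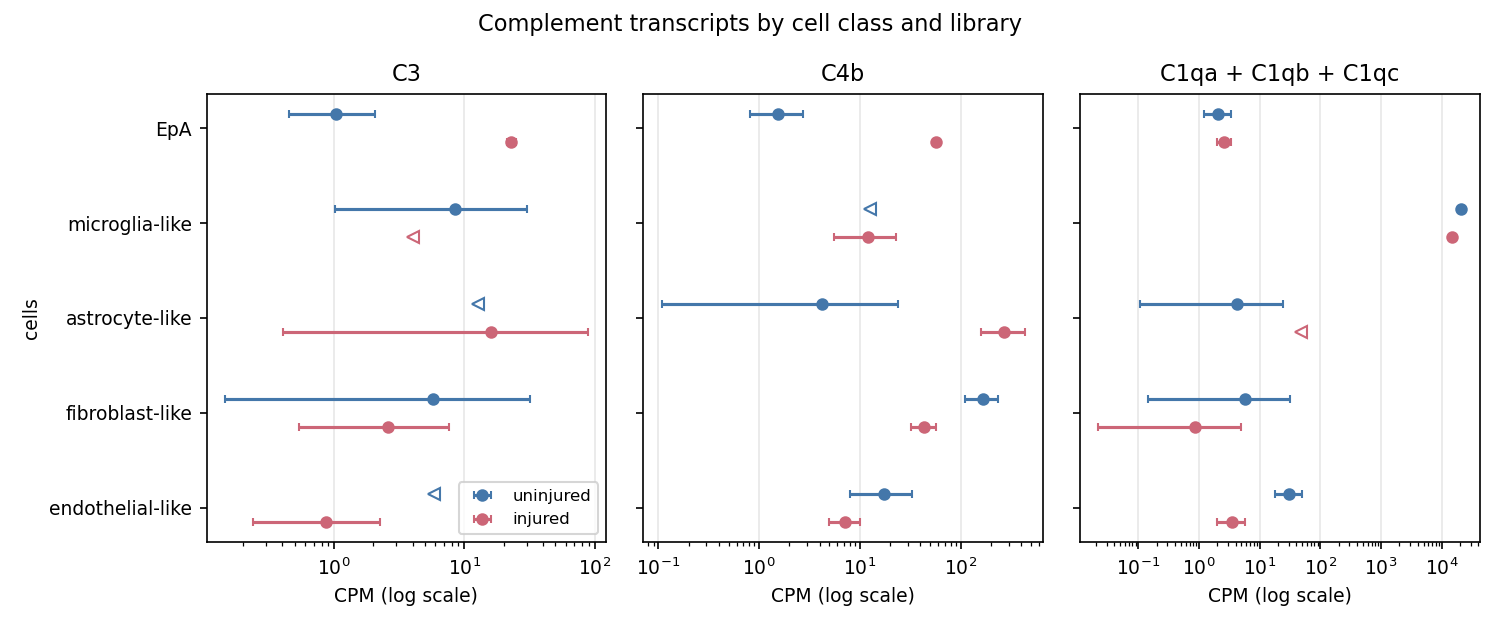
Levels (CPM, log scale) of C3, C4b and the C1q sum in EpA cells and 4 classes outside EpA, uninjured in blue and injured in red, with exact 95% count intervals. Open triangles mark 0 UMIs and stand at the level of 3 counts. C3 and C4b separate the libraries in EpA cells (1.04 against 22.9 and 1.56 against 57.4 CPM), and the C1q sum stands at 20616 and 14910 CPM in microglia-like cells.

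Both transcripts were spread unevenly over the injured EpA cells. Of 1004 cells, 821 held no C3 UMI, 90 held 1, 35 held 2, and 4 held 20 or more, up to 37. The 23 cells with most UMIs accounted for 50% of all C3 UMIs, and the 101 cells with most held 85.8%. The variance of C3 UMIs per cell was 9.69 times the mean, where counting alone in equal cells gives about 1. For C4b, 513 cells held no UMI, 185 held 1, 104 held 2, and 1 held 20 or more, with a maximum of 25. For C4b, 103 cells accounted for 50% of the UMIs, the 101 cells with most held 49.4%, and the variance was 3.87 times the mean. The part of cell depth in this spread was not tested. In the uninjured library no cell held more than 2 UMIs of either gene.

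At equal depth the libraries still differed. After every cell was thinned to 2000 UMIs, C3 was seen in 52 of 992 injured cells (5.24%, 3.94 to 6.82%) and in 2 of 547 uninjured cells (0.366%, 0.0443 to 1.31%). C4b was seen in 111 injured cells (11.2%, 9.29 to 13.3%) and in 1 uninjured cell (0.183%, 0.0046 to 1.01%). For the injured library 12 cells and for the uninjured library 8 cells were too shallow. In injured endothelial-like cells, set beside them, thinned C3 was seen in 0 of 111 cells, which allows up to 2.70% at the same floor (exact upper limit 3.27%). Thinned C4b was seen in 1 of the endothelial-like cells (0.901%). Their median depth was 25549 UMIs. Without thinning, C3 was seen in 18.2% of injured EpA cells and 1.74% of injured endothelial-like cells, and C4b in 48.9% and 10.4%. Both genes were thus seen in a larger share of injured EpA cells than of injured endothelial-like cells at both depths. Uninjured endothelial-like cells held C4b at 17.4 CPM, against 1.56 CPM in uninjured EpA cells, so they are no measure of free RNA. The part of free RNA was not tested.

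Cells with C3 held C4b more often than cells without. At 2000 UMIs, 16 injured EpA cells showed both, 36 C3 only, 95 C4b only and 845 neither. C4b was seen in 30.8% of the 52 cells with C3 (18.7 to 45.1%) and in 10.1% of the 940 cells without (8.25 to 12.2%). Without thinning, 125 cells showed both, 58 C3 only, 366 C4b only and 455 neither, so 125 of the 183 cells with C3 then also showed C4b. Serping1, which encodes the inhibitor of the C1 proteases, was seen in 36.5% of cells with C3 (23.6 to 51.0%) and in 21.5% of those without (18.9 to 24.3%).

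**Figure D3:**
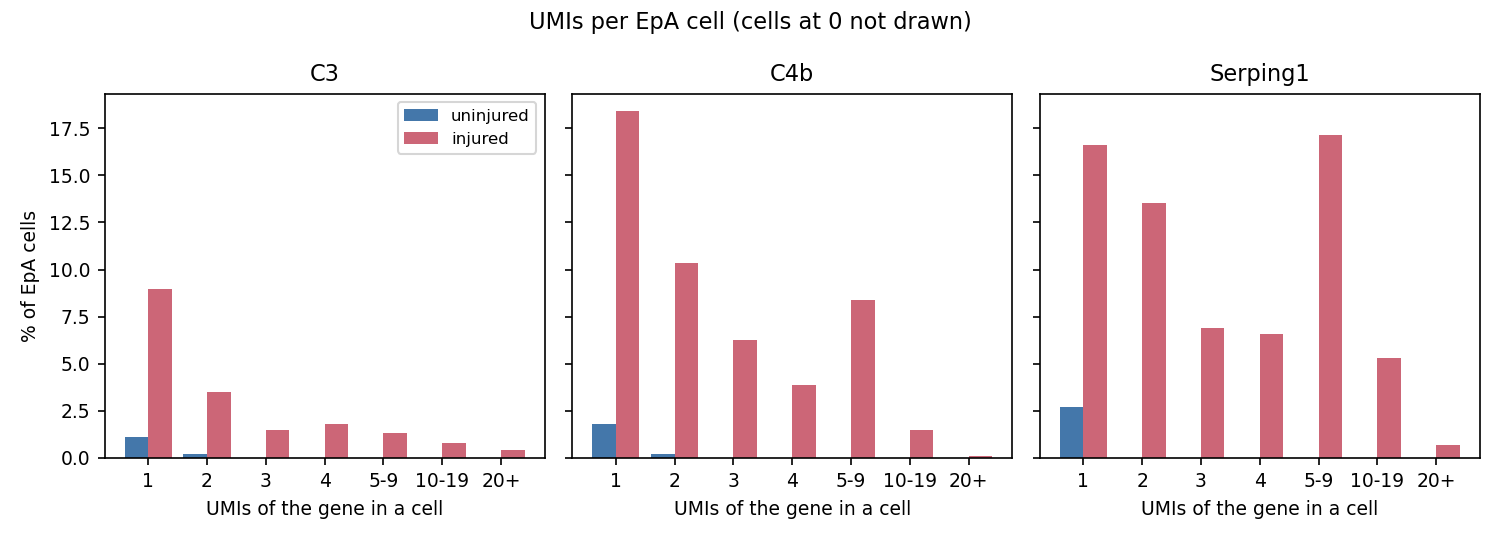
Share of EpA cells (percent) by the number of UMIs of C3, C4b or Serping1 in the cell, 555 uninjured cells in blue and 1004 injured cells in red, cells at 0 left out. Uninjured cells reach at most 2 UMIs, and in the injured library 4 cells hold 20 or more UMIs of C3.

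One cluster of injured EpA cells carried most of the C3. The clusters rest on other genes, since no complement gene took part in them. Cluster 10 held 2 uninjured and 189 injured EpA cells and was led by Pvalb, Ifit3, Lbp, Ifit3b and Gfap, among them interferon-induced genes and the astrocyte filament gene Gfap. It is left unnamed. It made up 19.1% of the thinned injured EpA cells and held 378 of 579 C3 UMIs, or 65.3%. Its C3 level was 100.4 CPM (90.5 to 111), against 9.34 CPM (8.09 to 10.7) in all other injured EpA cells. Its median depth was 17532 UMIs and that of the rest 21293. C4b stood at 135 CPM (124 to 148) in cluster 10 and 43.8 CPM (41.0 to 46.7) in the rest, and Serping1 at 254 and 93.0 CPM. Cluster 10 thus held 35.1% of the C4b and 32.3% of the Serping1 UMIs, above its share of cells and below its part of the C3.

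C4b was spread more widely over the other clusters. Cluster 3, led by Gmpr, Igfbp5 and Lgr5, had no uninjured cell and held 44.1% of the C4b UMIs at 62.5 CPM, with C3 at 11.3 CPM. In the ependymal-like clusters 0 and 1 injured cells held C4b at 57.8 and 34.5 CPM and C3 at 10.3 and 19.4 CPM. Uninjured EpA cells had 1.56 and 1.04 CPM, so both genes were higher in injured cells that still clustered with the uninjured ones. At the finer clustering, 163 of 167 cells of 1 cluster came from cluster 10 and held 60.8% of C3 UMIs at 109.9 CPM. A neighbouring cluster of 124 cells, led by Gfap and Lypd1, held C3 at 36.6 CPM and C4b at 114 CPM.

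As CPM, dividing cells were low in both. The 118 injured EpA cells of cluster 9, whose leading genes include the mitotic genes Prc1, Pbk and Cdc20 beside neutrophil genes, held 5 C3 UMIs, 0.753 CPM (0.245 to 1.76), and C4b at 17.6 CPM (14.6 to 21.1). Cells showing 2 or more of 10 cell division genes at 2000 UMIs, 108 in all, held C3 at 0.974 CPM and C4b at 19.0 CPM. Cells below that number held C3 at 27.9 CPM where ependymal markers were below the 5th percentile of uninjured cells and at 34.3 CPM where they were not, and C4b at 70.7 and 67.9 CPM. Dividing cells were also the deepest, with a median of 54891 UMIs, and the part of depth was not tested. Without scaling, the 108 dividing cells held 6 C3 UMIs, and the 452 and 432 other cells held 360 and 213. For C4b these counts were 117 UMIs, and 913 and 422. Without thinning, C4b was seen in 45.8% of cluster 9 cells and 48.9% of all injured EpA cells. At 2000 UMIs, C4b was seen in 2.78% of the 108 dividing cells, and in 13.9% and 10.4% of the 452 and 432 others. The C4b of dividing cells was thus low as CPM and at equal depth. As a share of cells without thinning, that of cluster 9 was near that of all injured EpA cells. The division and interferon lists were chosen after the clusters were seen.

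The level of ependymal markers gave no fixed order for C3 or C4b. The 5th percentile of uninjured cells lay at 10 ependymal marker UMIs in 2000, and 65 injured cells lay within 1 UMI of it. Cells below the 5th percentile of uninjured cells in ependymal markers held C3 at 19.2 CPM and cells at or above it at 34.2 CPM. After thinning the values were 31.3 and 32.3 CPM, so the gap seen without thinning was not seen at equal depth. For C4b they were 54.0 and 67.8 CPM, and 66.2 and 60.0 CPM after thinning, where the order is the other way. By depth, C3 stood at 27.9, 42.8 and 13.2 CPM in the shallowest, middle and deepest cells, and C4b at 57.8, 99.4 and 39.1 CPM. Both were highest in the middle group.

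Cells with C4b differed from cells without in some other transcripts. Gfap stood at 928 CPM (806 to 1064) in the 111 thinned cells with C4b and 480 CPM (448 to 514) in the 881 without. The 16 interferon-induced genes summed to 486 CPM (399 to 587) and 283 CPM (259 to 309). Cells with C3 and without had Gfap at 788 (627 to 979) and 516 CPM (484 to 549), and interferon genes at 375 (267 to 513) and 302 CPM (278 to 328), where the intervals overlap. Division genes were lower with either: 38.5 CPM (10.5 to 98.5) with C3 against 490.4 CPM (459 to 523), and 194 CPM (140.2 to 261) with C4b against 501 CPM (469 to 535).

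**Figure D4:**
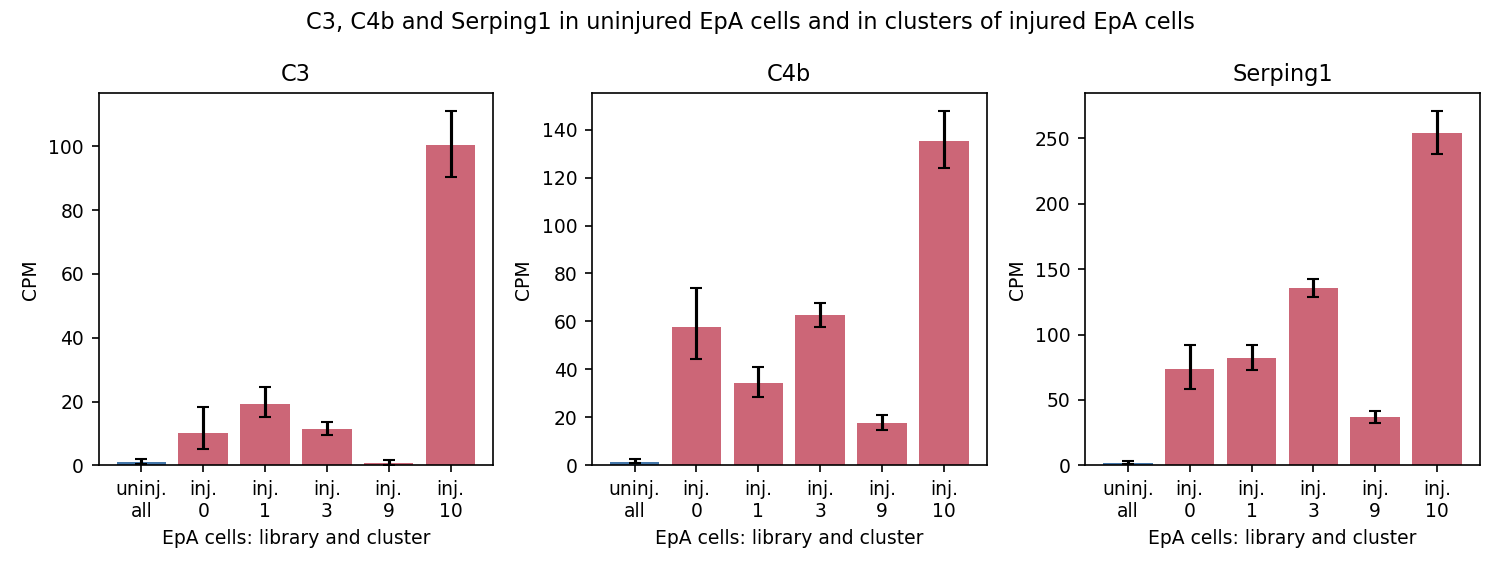
Levels (CPM) of C3, C4b and Serping1 in all uninjured EpA cells (blue) and in clusters 0, 1, 3, 9 and 10 of the injured EpA cells (red), with exact 95% count intervals, 1 library each. C3 stands at 100.4 CPM in cluster 10 and at 0.753 CPM in cluster 9.

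The complement list moved in both directions in EpA cells. Its counts below include C4b, which was chosen with its values known. Of the 38 listed genes, 8 reached 50 CPM in either library: 2 were higher in the injured library (C4b and Serping1) and 4 lower (Hc, Cd59a, Cd59b and Clu), beside 10.9% higher and 13.8% lower over all genes at that level. Their median log2 difference was -0.41, against 0.0045 over all 3706 genes. Members just inside the 50 CPM level were Hc at 54.8 and C4b at 57.4 CPM, and just outside it Lrp1 at 47.5 and Csmd1 at 44.5 CPM.

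Among initiating genes none reached that level. C1ra and C1s1, the proteases that C1q carries, stood at 0.390 and 0.633 CPM and at 0.260 and 1.30 CPM. Among central genes C2, which joins C4 in the cleaving enzyme, stood at 0.390 and 0.830 CPM. Cfb, its counterpart in the alternative pathway, had 0 and 1 UMIs. Of the terminal genes only Hc, which encodes C5, reached the level: it went from 54.8 CPM to 13.2 CPM, 4.15-fold lower (3.58 to 4.80). Thinned to 2000 UMIs the log2 difference of Hc was -0.98 in place of -2.05.

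Inhibitors went both ways. Serping1 had 15 UMIs in 15 uninjured cells and 2959 UMIs in 670 injured cells, 1.95 CPM (1.09 to 3.22) and 117 CPM (113 to 121), 60.0-fold higher (36.3 to 107). The injured microglia-like cells held it at 5.42 CPM, so the EpA level was 2159% of theirs. Clu, which encodes the secreted chaperone clusterin that also binds the terminal complex, stood at 3583 and 1662 CPM. Cd59a and Cd59b, membrane proteins that block the terminal pore, stood at 70.0 and 34.2 CPM and at 114 and 39.6 CPM. Cd55, which speeds decay of the C3-cleaving enzymes, was at 160.4 and 187 CPM, and the related Cr1l at 20.4 and 31.6 CPM. Csmd1, a membrane inhibitor of the classical pathway, was at 44.5 and 20.3 CPM. The sizes of the lower values depended on how cells were weighted: with every cell weighted alike the log2 difference was -0.50 for Clu in place of -1.11, -0.55 for Cd59a in place of -1.04 and -0.85 for Cd59b in place of -1.53. All 3 stayed lower there, but of the list only Hc was then 2-fold lower, and after thinning no list gene was. Over all genes at 50 CPM, 131 of 3540 and 175 of 3611 were 2-fold lower in these settings.

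Receptors of C3 and C5 fragments were nearly unseen in EpA cells. C3ar1, the receptor of the C3a fragment, had 1 and 0 UMIs, C5ar1 had 0 and 0, and Itgam, a chain of complement receptor 3, had 3 and 2. C1qbp, a mitochondrial protein that can bind C1q, stood at 89.2 and 156 CPM, and Lrp1, an endocytic receptor that can bind C1q, at 37.7 and 47.5 CPM.

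**Figure D5:**
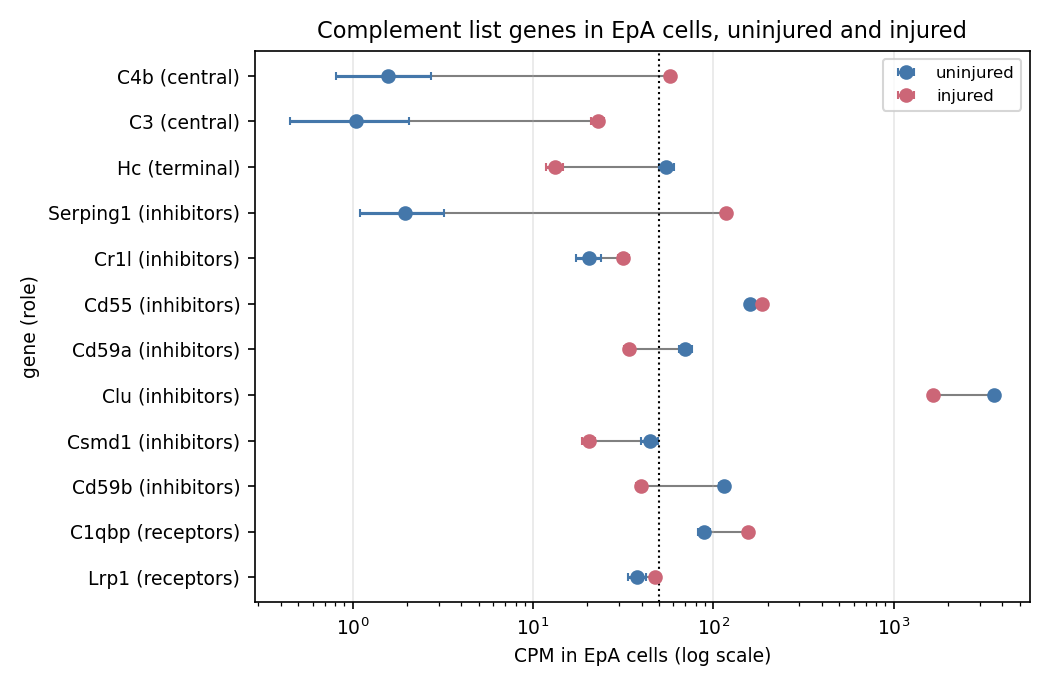
Levels in EpA cells (CPM, log scale) of complement list genes that reached 20 CPM in 1 or both libraries, uninjured in blue and injured in red, with exact 95% count intervals, ordered by role. The dotted line marks 50 CPM. C4b, C3 and Serping1 lie at 1 to 2 CPM in the uninjured library and at 57.4, 22.9 and 117 CPM in the injured one.

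In the microglia-like cells the complement list also moved in both directions. Of the 38 list genes, 14 reached 50 CPM in either library, 5 of them higher and 2 lower in the injured library, beside 17.7% higher and 25.5% lower over 3539 genes. Their median log2 difference was -0.032, against -0.19 over all genes. C3ar1 stood at 113 CPM (27 UMIs) and 271 CPM (200 UMIs), 2.39-fold higher (1.59 to 3.72). C5ar1, the receptor of the C5a fragment, stood at 71.4 and 206 CPM, 2.88-fold higher (1.74 to 5.08). Itgam and Itgb2, the chains of complement receptor 3, changed less, from 365 to 301 CPM and from 273 to 228 CPM, with intervals of the ratio that include 1.

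The other differences lay in soluble components, inhibitors and Cd93, which the list places among receptors. Cfp, which encodes properdin, the stabiliser of the alternative pathway enzyme, stood at 37.8 and 118 CPM, 3.12-fold higher (1.57 to 7.05). Fcna, a ficolin of the lectin pathway, had 0 and 40 UMIs, 4.30-fold over a floor of 3 counts over the group. The exact lower limit of its ratio was 3.34. It was not listed for the uninjured library and was counted as 0 there. Cd93 had 0 and 37 UMIs, 3.98-fold over that floor, with an exact lower limit of 3.08. Of the 2 lower genes, Cr1l went from 101 to 43.3 CPM, 2.32-fold lower (1.31 to 4.07). C1qbp and Lrp1, also listed as receptors, differed by under 2-fold, at 58.8 and 115 CPM and at 218 and 253 CPM. The macrophage markers given above also differed between the libraries, and their part in these values was not tested.

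Reactive astrocyte lists, for one of which C3 is a widely used marker, were set beside these values in EpA cells. Of 11 listed genes of the first list (A1), 2 reached 50 CPM and both were higher in the injured library: Serping1, itself a complement gene, and the class I gene H2-D1, at 45.4 and 187 CPM. Of 11 listed genes of the second list (A2), 4 reached it and 3 were higher: S100a10 at 188 and 1110.3 CPM, Emp1 at 44.2 and 139 CPM, and Tm4sf1 at 952 and 2098 CPM. Both lists thus held genes that were higher, beside 10.9% over all genes.

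Over 16 sums of cells of 1 cluster and 1 library, each of at least 20 cells, the genes most like the C1q sum in log2(CPM + 1) were Aif1, Fcgr1 and 1810011H11Rik, each with a Pearson correlation of 0.98. For C4b they were Pafah1b1 (0.88), Ubtf (0.84) and Plin3 (0.82). For C3 they were Commd6 (0.74), Josd2 (0.73) and Exoc3 (0.70). These are the highest of 7475 genes over sums that share 2 libraries and differ in depth, and they are given as a description only.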

How the data were processed

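Libraries, 1 uninjured and 1 injured, were made with the 10x Genomics 3′ kit, version 2, per the labels' protocols. The authors deposited raw UMI counts per gene and cell, per library and for all kept cells and EpA cells; Cell Ranger 3.0.1, Seurat and the mm10 build are named per the submitters' processing notes, and no source used here gives the cell filters. The per-library tables were used, because the table of all kept cells does not list C3 and C4b; each listed gene had UMIs in at least 3 cells. Cells of the EpA table, other kept cells and 165 and 338 barcodes not kept were summed apart, and counts were scaled to CPM. Clusters (scanpy 1.11.5, 2000 variable genes without complement genes, 20 principal components, 15 neighbours, Leiden resolution 0.5) were named from marker lists. No doublet caller was run. With 1 library per group no test was made: levels have exact Poisson, ratios exact conditional binomial and shares Clopper-Pearson intervals (95%), and log2 differences add 0.5 counts. Thinning drew 2000 UMIs per cell. PCR duplicates are removed by UMIs, and intervals cover counting error only. Text values are for the 5 genes, complement genes with at least 20 CPM in EpA or microglia-like cells (others by role), cell markers, up to 4 genes per astrocyte list and the 3 most alike genes. Members and lists were chosen with earlier results of these data known. Of 47 complement genes, 9 are not analysed here, and the values of 1 other and of 1 microglia marker are not reported here. Alternatives in scaling (edgeR 4.0.16 TMM), weighting, thinning, thresholds and cell sets were tried. Scripts were tested on simulated data. Sequences and positions came from RefSeq (GRCm38.p6) and the GENCODE annotation of GRCm38.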

Additional observations from a re-analysis of the deposited data

Results flagged for a closer look

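C3, C4b and Serping1 had opposite signs as CPM in EpA cells and in all kept cells outside EpA, each from 1 library per group, so the difference between these cell sets was not tested. The log2 difference, injured over uninjured, was 4.37 for C3 in EpA cells and -2.34 outside EpA. For C4b it was 5.14 and -0.74. The C4b value outside EpA turned to 0.15 with every cell weighted alike and to 1.18 as UMIs per cell without scaling, and the C3 value there went to -0.21 and -0.42. The log2 difference of Serping1 was 5.86 and -1.24. Outside EpA the uninjured value of Serping1 was 136 CPM, with 169 of 174 UMIs in fibroblast-like cells. In barcodes that the authors did not keep, C4b stood at 37.6 CPM (28.0 to 49.4) in the injured and 8.45 CPM (2.74 to 19.7) in the uninjured library. These barcodes had median depths of 2350 and 2272 UMIs.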

How the results depend on the processing

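No paired analysis was possible because each group is 1 library. All values are log2 differences, injured over uninjured, unless named otherwise. With cells of at least 1000 UMIs and under 10% mitochondrial UMIs, C3 in EpA cells was 6.79 and C4b 6.64, and with all deposited barcodes they were 2.34 and 3.04. Without a CPM minimum 11 of 34 complement genes were higher and 11 lower in EpA cells. Over all 16799 genes 3851 were higher and 2710 lower in that setting. At the 50 CPM level the number lower was 1 of 9 with every cell weighted alike, beside 131 of 3540 genes. After thinning it was 0 of 8, beside 175 of 3611. Without EpA cells holding 2 or more microglia or macrophage UMIs it was 2 of 8, beside 345 of 3623. As UMIs per cell without scaling, C1q in microglia-like cells was 1.39, C3 outside EpA -0.42 and C4b outside EpA 1.18, so C1q and C4b changed sign. With every cell outside EpA weighted alike, C3 was -0.21 and C4b 0.15. The share of injured EpA cells with C3 was 2.51% at 1000 UMIs, 8.64% at 5000 and 18.2% without thinning, and with C4b 6.71%, 22.0% and 48.9%. The cause of these shifts was not tested, save that shares depend on depth by construction. Hc, Clu, Cd59a and Cd59b stayed lower and Serping1, Cd55 and C1qbp higher under the 4 other scalings tried, chosen after seeing the data. With 1 library per group, no replicate could be left out.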
